A study of Mus musculus with 12 samples.

Results

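The genes described here are 35 genes used by macrophages and by the lysosome: the lysozymes, macrophage surface markers, the growth factor receptor and transcription factors of the lineage, the complement C1q chains, Fc receptors with their adaptors, lysosomal proteases, and secreted or oxidase products. They were listed by symbol, and a gene was kept where at least 1 of its probes had a detection p-value under 0.05 on 3 or more arrays. By that rule 32 of the 35 genes were tested, among 15308 genes and unnamed probes in all. Itgam, an integrin chain of myeloid cells, was detected on 2 arrays and Fcgr1, the high-affinity Fc receptor, on 1, so neither was tested, and Cd68 was not analysed here. All 12 arrays carried RNA of cells labelled as regulatory T cells (Tregs), not of macrophages, so the levels below are those of myeloid genes in Treg samples.

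The samples came from C57BL/6 mice on a high fat diet, and all of them carried Foxp3Cre, the Cre recombinase under the promoter of Foxp3, the factor that defines Tregs. The control groups carried Foxp3Cre alone, and the Tbet flox groups (Tbetflox Foxp3Cre) also carried floxed Tbet (Tbx21), the type 1 T cell factor, so that Cre acts in cells that use the Foxp3 promoter. Each genotype was sampled in perigonadal white adipose tissue (PGWAT) and in spleen, with 3 arrays in each of the 4 groups. The age and sex of the mice, the sort and any pooling are not given in the sources used here, and where the arrays are not separate animals the spread behind each p-value may be technical.

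Macrophages develop under the receptor Csf1r and the transcription factor PU.1, which the gene Spi1 encodes. They take up dead cells, lipid and immune complexes and break them down in lysosomes with cathepsins, which are proteases active at low pH. In adipose tissue of obese animals macrophages gather around dying adipocytes, and those that express Trem2, a lipid-sensing receptor, are known as lipid-associated macrophages. Cathepsins S, B, D, L and Z and the protease legumain also occur in other leukocytes, T cells included.

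Per the labels, PGWAT arrays lay on 1 chip and spleen arrays on the other, so tissue and chip cannot be told apart, and within a chip the control arrays held the first positions and the Tbet flox arrays the last. An array had 11252 to 17090 probes with a detection p under 0.01, and PGWAT Tbet flox 3 had the fewest and also the lowest median signal. The number of arrays limited the precision. Foxp3 measured between 5.44 (PGWAT control 1) and 9.5 (PGWAT control 3) on a log2 scale, and Tbx21 between 4.54 (PGWAT Tbet flox 3) and 8.45 (PGWAT Tbet flox 1), with Tbet flox arrays at both ends. Nothing in the files placed the Tbx21 probe inside or outside the floxed part. The T cell and Treg identity genes, 14 tested, had summed linear levels of 4672 to 8733 on the PGWAT control arrays, 11133 to 12043 on the PGWAT Tbet flox arrays, 10921 to 11821 in spleen control and 11191 to 12107 in spleen Tbet flox.

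Stretches upstream of 7 of the genes are shown to let the letters of the searched motifs be seen. The first 5 were chosen among genes described below that hold the PU.1 motif, Lyz2 is a macrophage gene that holds neither motif, and Ctsd, for cathepsin D, is a lysosomal gene that passed none of the tests. Each is the 250 bases before the first listed start, 5′ to 3′ on the gene's strand, from RefSeq on GRCm38.p6. In the first 5, capitals mark GAGGAA, the core of the PU.1 site, or its reverse complement TTCCTC. Lyz2 has no capitals. In Ctsd they mark CACGTG, the core of the site of TFEB and TFE3, the factors of lysosomal genes. The stretches lie at chr17:48346151-48346400 (+) for Trem2, chr4:136886201-136886450 (-) for C1qb, chr4:136892915-136893164 (-) for C1qc, chr15:6299539-6299788 (+) for Dab2, chr16:48842359-48842608 (+) for Retnla, chr10:117282273-117282522 (-) for Lyz2 and chr7:142387828-142388077 (-) for Ctsd.
Trem2: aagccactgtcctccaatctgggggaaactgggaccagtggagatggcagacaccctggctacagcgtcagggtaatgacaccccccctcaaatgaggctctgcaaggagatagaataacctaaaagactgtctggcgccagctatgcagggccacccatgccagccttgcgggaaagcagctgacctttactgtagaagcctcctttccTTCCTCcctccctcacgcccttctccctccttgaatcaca
C1qb: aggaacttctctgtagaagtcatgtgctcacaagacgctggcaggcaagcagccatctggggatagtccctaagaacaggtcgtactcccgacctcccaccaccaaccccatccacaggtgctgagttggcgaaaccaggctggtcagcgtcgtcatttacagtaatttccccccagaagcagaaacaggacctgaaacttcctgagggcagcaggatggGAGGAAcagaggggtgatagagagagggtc
C1qc: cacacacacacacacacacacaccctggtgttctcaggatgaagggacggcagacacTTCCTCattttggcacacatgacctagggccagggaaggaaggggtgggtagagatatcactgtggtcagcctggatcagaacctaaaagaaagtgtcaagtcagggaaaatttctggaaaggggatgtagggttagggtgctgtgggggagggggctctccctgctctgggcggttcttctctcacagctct
Dab2: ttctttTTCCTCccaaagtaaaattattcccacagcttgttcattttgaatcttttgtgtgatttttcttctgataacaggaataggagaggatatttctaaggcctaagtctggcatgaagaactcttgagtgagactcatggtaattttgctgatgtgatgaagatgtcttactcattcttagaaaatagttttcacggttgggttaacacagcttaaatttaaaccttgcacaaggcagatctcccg
Retnla: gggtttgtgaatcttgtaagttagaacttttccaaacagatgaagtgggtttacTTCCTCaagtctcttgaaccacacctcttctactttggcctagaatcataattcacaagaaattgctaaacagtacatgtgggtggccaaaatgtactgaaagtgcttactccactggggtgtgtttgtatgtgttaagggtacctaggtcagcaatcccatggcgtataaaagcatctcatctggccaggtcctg
Lyz2: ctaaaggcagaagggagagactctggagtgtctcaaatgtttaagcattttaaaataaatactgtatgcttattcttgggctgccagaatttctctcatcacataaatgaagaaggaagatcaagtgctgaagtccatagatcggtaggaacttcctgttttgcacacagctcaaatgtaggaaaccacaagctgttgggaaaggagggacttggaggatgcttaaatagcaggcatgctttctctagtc
Ctsd: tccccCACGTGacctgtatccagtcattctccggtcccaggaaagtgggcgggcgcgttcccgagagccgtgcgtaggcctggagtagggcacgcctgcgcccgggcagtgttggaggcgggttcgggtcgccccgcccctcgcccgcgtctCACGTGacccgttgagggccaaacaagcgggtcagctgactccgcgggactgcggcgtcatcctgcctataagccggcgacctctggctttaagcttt

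Both motifs were searched on both strands in windows of 300 bases, 250 before to 50 after the start, and 24 of the 32 tested genes had such an entry. GAGGAA was found in 12 of the 24 windows (50%), against 28.3% of 27025 promoters of the same length. It was in both C1q windows that had an entry, in neither lysozyme window and in 1 of the 5 of the lysosomal proteases, so genes that rose between tissues are found both with and without it. CACGTG was found in 2 of the 24 windows (8.33%), those of Ctsd and Ctsl, against 7.24% of all promoters. The 2 CACGTG copies of Ctsd begin at positions -245 and -98 from its start. A match is a description of letters and not a site of binding.

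Levels below are log2 intensities after background correction and quantile normalization, and each gene is represented by its brightest kept probe. A gene was called where its limma adjusted p was under 0.05. Brightness was used to choose which genes to name, and since probes differ in brightness for the same amount of RNA, it gives no order of the genes' levels. Of the 32 genes, 20 had a detection p under 0.05 on all 12 arrays, 30 on all 3 PGWAT control arrays, 24 on all 3 PGWAT Tbet flox arrays and 22 on all 3 arrays of each spleen group. Cd14, Fcgr2b, Retnla, Dab2 and Trem2 were detected on no spleen array. With Ctsl and Spi1 they passed the filter mainly or only through PGWAT. Trem2, Cd14 and Fcgr2b had 2 or fewer detected arrays outside PGWAT control, so they passed through the group where they were high.

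**Figure D1:**
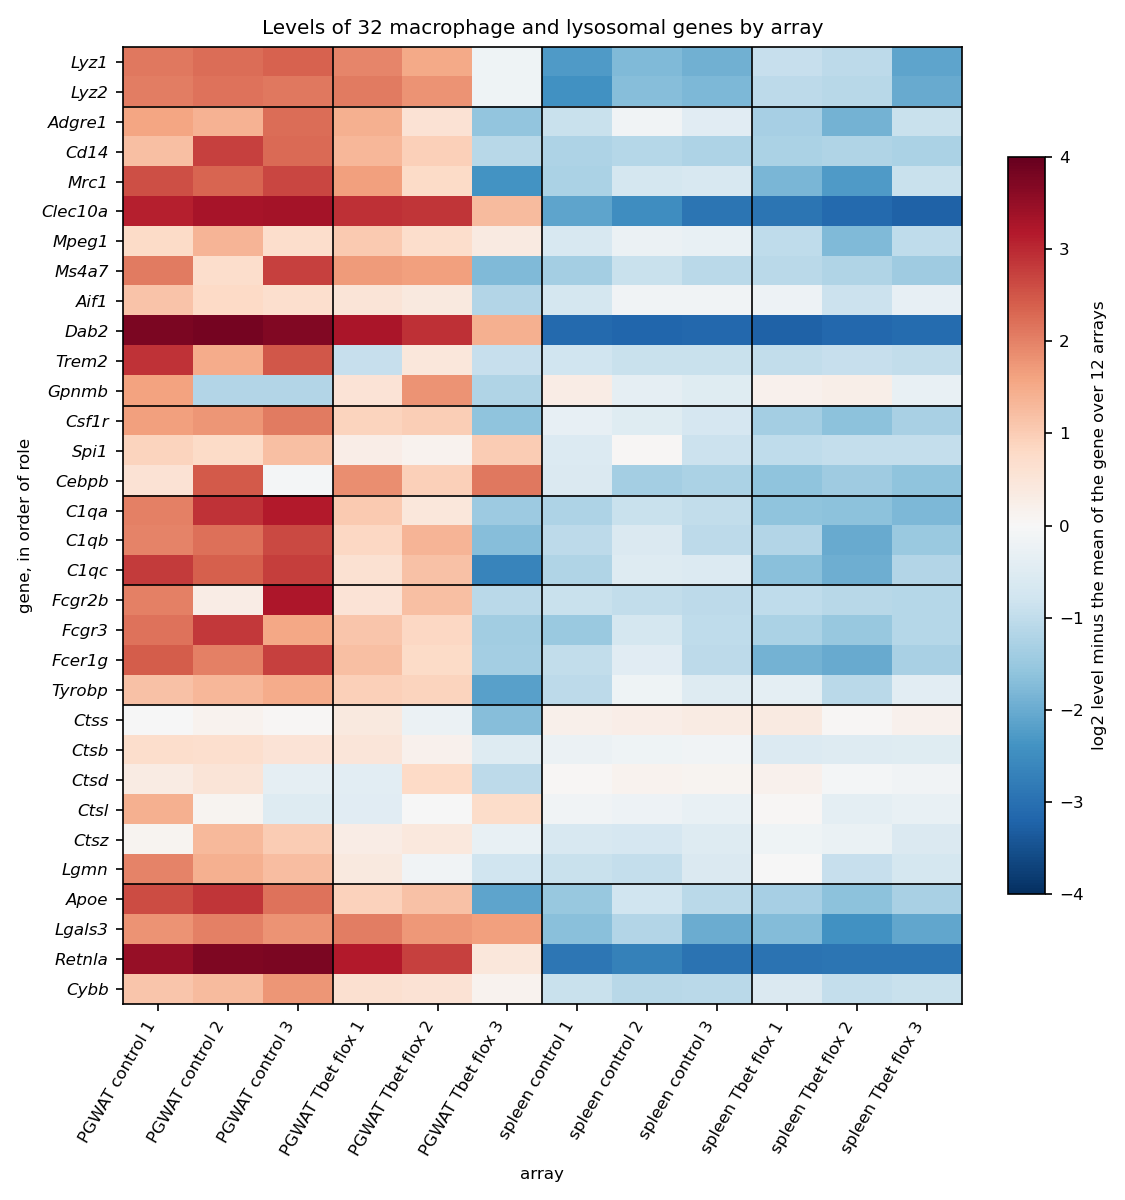
Level of each of the 32 tested genes on each of the 12 arrays, drawn as the difference from the gene's own mean over the arrays (colour, log2 units), with genes in rows by role and arrays in columns by group. The PGWAT control columns are mostly above and the spleen columns mostly below each gene's mean, and PGWAT Tbet flox 3 is the lowest of the 6 PGWAT arrays for 29 of 32 genes.

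The genes were brightest as a set in PGWAT control, by a sum that the brightest probes dominate. Their summed linear level was 38853, 41449 and 43194 on the PGWAT control arrays, 30758, 25936 and 9633 on PGWAT Tbet flox 1, 2 and 3, between 6678 and 8173 in spleen control and between 6192 and 7496 in spleen Tbet flox. No PGWAT Tbet flox array reached the lowest PGWAT control array, and all PGWAT arrays were above all spleen arrays. In these bulk samples fewer cells of a type and less RNA per cell cannot be told apart. The median SD of these genes within a group was 0.341 in PGWAT control, compared with 1.146 in PGWAT Tbet flox, whereas over all features tested it was 0.552 and 0.496. The 2 spleen groups had 0.246 (control) and 0.197 (Tbet flox).

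**Figure D2:**
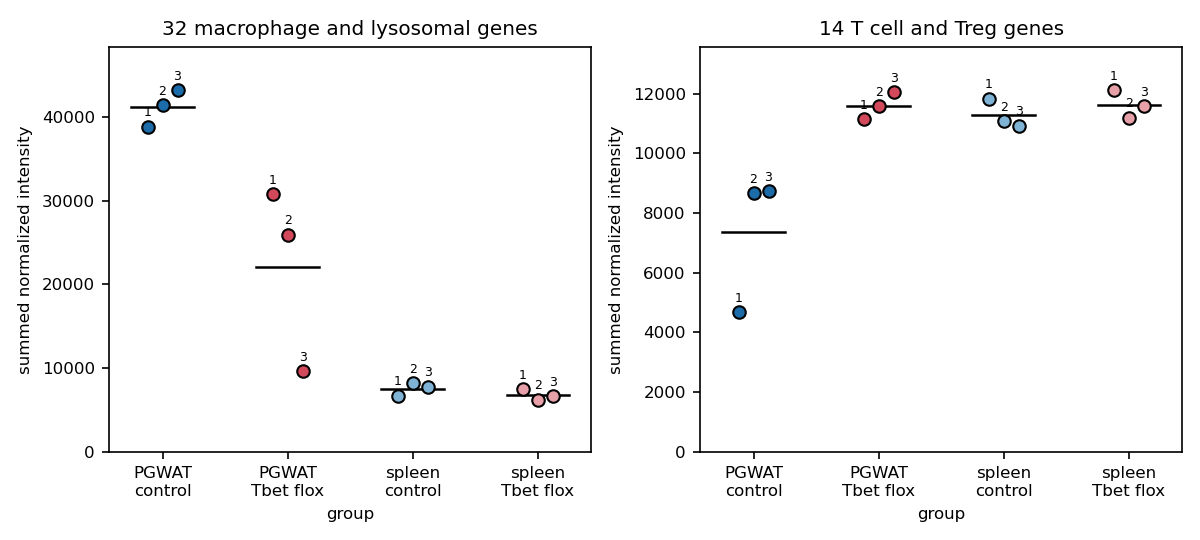
Summed linear level of the macrophage and lysosomal protease genes and of the T cell and Treg identity genes on each array (points, numbered by replicate, with a horizontal line at the group mean). In PGWAT the Tbet flox arrays sit at 9633 to 30758 for the first set and 11133 to 12043 for the second, below and above all PGWAT control arrays.

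In PGWAT Treg samples, macrophage genes measured lower in Tbet flox than in control, but none except Trem2 passed the test, and Trem2 was kept by the filter only through PGWAT control. Of the 32 genes 1 was called lower, none rose and 31 did not pass, where 0.0915% of all features were called lower and 0.118% higher. The value was below 0 for 30 of the 32, against 47.6% of all features, and the median was -1.27 against 0.04 over all features. For 18 of the 32 every Tbet flox array was below every control array, against 5.98% of all features. An unadjusted p under 0.05 was reached by 15 of the 32 and by 9.94% of all features. These counts include Trem2, Cd14 and Fcgr2b, which were kept through PGWAT control, where they were high. All of them were below 0 with an unadjusted p under 0.05, and of them only Trem2 had groups that did not overlap. Counts without them were not made. PGWAT Tbet flox 3 was the lowest of the 6 PGWAT arrays for 29 of the 32 genes, against 19% of all features. Without it the median was -0.68, 27 of the 32 were below 0, and the groups did not overlap for 19 of the 32, against 9.23% of all features, with Tbet flox lower. T cell and Treg identity genes measured the other way on these arrays: 13 of the 14 tested were above 0, with a median of 0.75, none passed and 4 had an unadjusted p under 0.05. Their part in the lower macrophage gene levels was not tested.

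Trem2, the lipid-sensing receptor, measured 8.16, 6.74 and 7.74 on the PGWAT control arrays and 4.36, 5.72 and 4.35 on the PGWAT Tbet flox arrays. The lowest control array was above the highest Tbet flox array, and the probe was detected on all 3 control arrays and on 1 of the Tbet flox arrays. The spleen arrays lay between 4.28 and 4.47 and were all below detection. The difference in PGWAT was -2.74 ± 0.47 (SE) on the log2 scale (limma adjusted p = 0.0404). With most Tbet flox arrays below detection its size is not exact, and because the gene was kept only through the group where it was high, its call lends no support to a fall of the genes as a set. Its value stayed below 0 under all 22 alternatives run, with limma adjusted p between 0.0093 and 0.408, and 6 of the 22 were past the threshold. Leaving out 1 array ended the call for all but PGWAT control 2 (adjusted p = 0.018 without it) and PGWAT Tbet flox 2 (0.0424). The other 10 gave 0.0637 (without spleen Tbet flox 3) to 0.163 (without PGWAT Tbet flox 3). With the PGWAT arrays fitted alone the limma adjusted p was 0.408.

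The C1q chains, which start the classical complement pathway and are made mostly by tissue macrophages, were lower on every PGWAT Tbet flox array than on any control array. C1qa measured 8.68, 9.55 and 9.83 on the control arrays and 7.71, 7.12 and 5.22 on the Tbet flox arrays of PGWAT, a difference of -2.67 ± 0.60 (limma adjusted p = 0.139). Without weights for the tissues it passed at 0.0233, and over its 22 alternatives the limma adjusted p ran from 0.0233 to 0.433. In a simulation most calls for genotype in PGWAT made without weights were false, so that pass lends little support. C1qb measured 10.25, 10.47 and 10.90 in control and 9.09, 9.63 and 6.55 in Tbet flox, a difference of -2.12 ± 0.80 (limma adjusted p = 0.38). C1qc had a difference of -2.94 ± 0.92 (limma adjusted p = 0.284). For all 3 chains PGWAT Tbet flox 3 was the lowest array and the other 2 Tbet flox arrays lay between it and the controls.

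**Figure D3:**
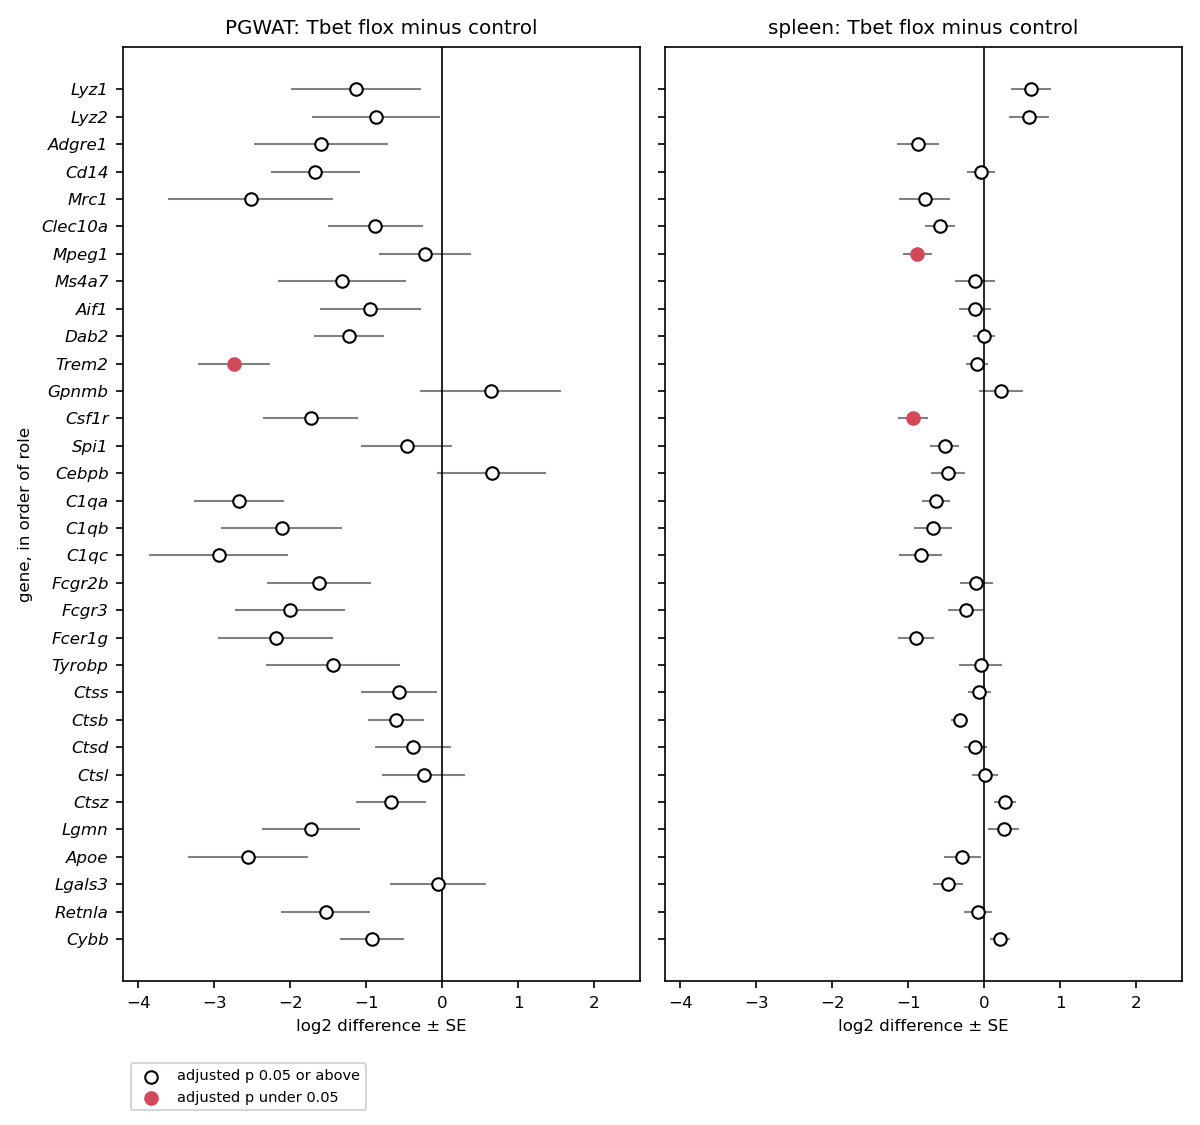
Difference Tbet flox minus control (log2 units ± SE of the limma fit) in PGWAT and in spleen for each of the 32 tested genes, with filled points past a limma adjusted p of 0.05. In PGWAT 30 of 32 points are below 0 and 1 is filled (Trem2), and in spleen 2 are filled (Csf1r and Mpeg1). Spleen points of the genes detected on 2 or fewer spleen arrays are differences near background.

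The lysozymes, which cut bacterial cell walls, were bright in both genotypes. Lyz1 measured 12.16, 12.27 and 12.39 in PGWAT control against 12, 11.55 and 9.87 in PGWAT Tbet flox, so the groups did not overlap (-1.13 ± 0.85, limma adjusted p = 0.753). Lyz2, the lysozyme of macrophages, had a difference of -0.87 (limma adjusted p = 0.838), and its groups overlapped. The overlap depended on the probe. By another kept probe of Lyz1 (-1.03) the groups overlapped, and by another kept probe of Lyz2 (-1.73) they did not. The genes are near copies, and whether their probes tell them apart was not tested.

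Among the lineage and surface markers, Aif1, a calcium-binding protein of macrophages, measured 11.21, 10.88 and 10.74 in PGWAT control against 10.61, 10.46 and 8.92 in PGWAT Tbet flox (-0.95 ± 0.66, limma adjusted p = 0.718). Its groups did not overlap by the probe used. The other kept probes of Aif1 were at -1.41 and -2.02, and by the first of these the groups overlapped. By the probes used, the mannose receptor gene Mrc1 had the largest difference of these markers after Trem2, at -2.52 ± 1.09, with limma adjusted p = 0.465. Adgre1, a surface marker of mature macrophages, was at -1.60, the endotoxin co-receptor gene Cd14 at -1.67, the membrane protein gene Ms4a7 at -1.32, the endocytic adaptor gene Dab2 at -1.23 and the lectin gene Clec10a at -0.88. None of them passed (limma adjusted p of 0.341 to 0.724). The other kept probes of Dab2 were at -2.61 and -1.83, the first of them further from 0 than Mrc1. The pore-forming protein gene Mpeg1 was at -0.23, and Gpnmb, a glycoprotein gene that rises in lipid-laden macrophages, was at 0.63 with detection on 1 control and 2 Tbet flox arrays.

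Csf1r, the receptor for the macrophage growth factor, measured 8.08, 8.21 and 8.51 in PGWAT control against 7.33, 7.44 and 4.82 in PGWAT Tbet flox. No Tbet flox array reached a control array (-1.73 ± 0.63, limma adjusted p = 0.354). The transcription factor genes were closer to 0, with Spi1 at -0.47 and Cebpb, which drives inflammatory myeloid genes, at 0.65 (limma adjusted p of 0.891 and 0.866). Cebpb and Gpnmb were the 2 genes above 0.

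Tyrobp, the adaptor that signals for Trem2, measured 10.91, 11.06 and 11.24 in PGWAT control against 10.70, 10.62 and 7.57 in PGWAT Tbet flox. PGWAT Tbet flox 3 was far below the other 5 (-1.44 ± 0.89, limma adjusted p = 0.656). Fcer1g, the shared signalling chain of Fc receptors, had a difference of -2.19 ± 0.76, the low-affinity activating receptor gene Fcgr3 of -2.01 ± 0.73 and the inhibitory receptor gene Fcgr2b of -1.62 ± 0.69. Their limma adjusted p lay between 0.329 and 0.455. The other 2 kept probes of Fcgr2b were at -1.16 and -0.14.

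The differences of the lysosomal proteases lay between -1.73 and -0.25, and none of the 6 passed. Ctsb, for cathepsin B, measured 11.58, 11.55 and 11.43 in PGWAT control against 11.36, 11.03 and 10.34 in PGWAT Tbet flox, without overlap (-0.61 ± 0.37, limma adjusted p = 0.641). Its other kept probe was at -2.00. Lgmn, for legumain, which activates other lysosomal proteases, was at -1.73 ± 0.65 (limma adjusted p = 0.375). It passed without weights for the tissues (limma adjusted p = 0.0236, in a range of 0.0236 to 0.745). As for C1qa, a pass without weights lends little support. Ctsz was at -0.67, Ctss, for a protease of antigen processing, at -0.57, Ctsd at -0.39 and Ctsl at -0.25. Ctss, Ctsd, Ctsl and Lgals3 were above 0 with at least 1 array left out, as given in the closing section.

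Among secreted products and the oxidase, Lgals3, for the lectin galectin-3, measured 10.38, 10.62 and 10.39 in PGWAT control against 10.64, 10.32 and 10.25 in PGWAT Tbet flox. The groups overlapped and differed by -0.06 ± 0.63 (limma adjusted p = 0.994), and PGWAT Tbet flox 3 was close to the other 5 arrays. Apoe, for the lipid carrier apolipoprotein E, was at -2.56 ± 0.79 (limma adjusted p = 0.273). Retnla, a product of alternatively activated macrophages, was at -1.54, and Cybb, the membrane subunit of the phagocyte oxidase, at -0.93 (limma adjusted p of 0.387 and 0.5).

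**Figure D4:**
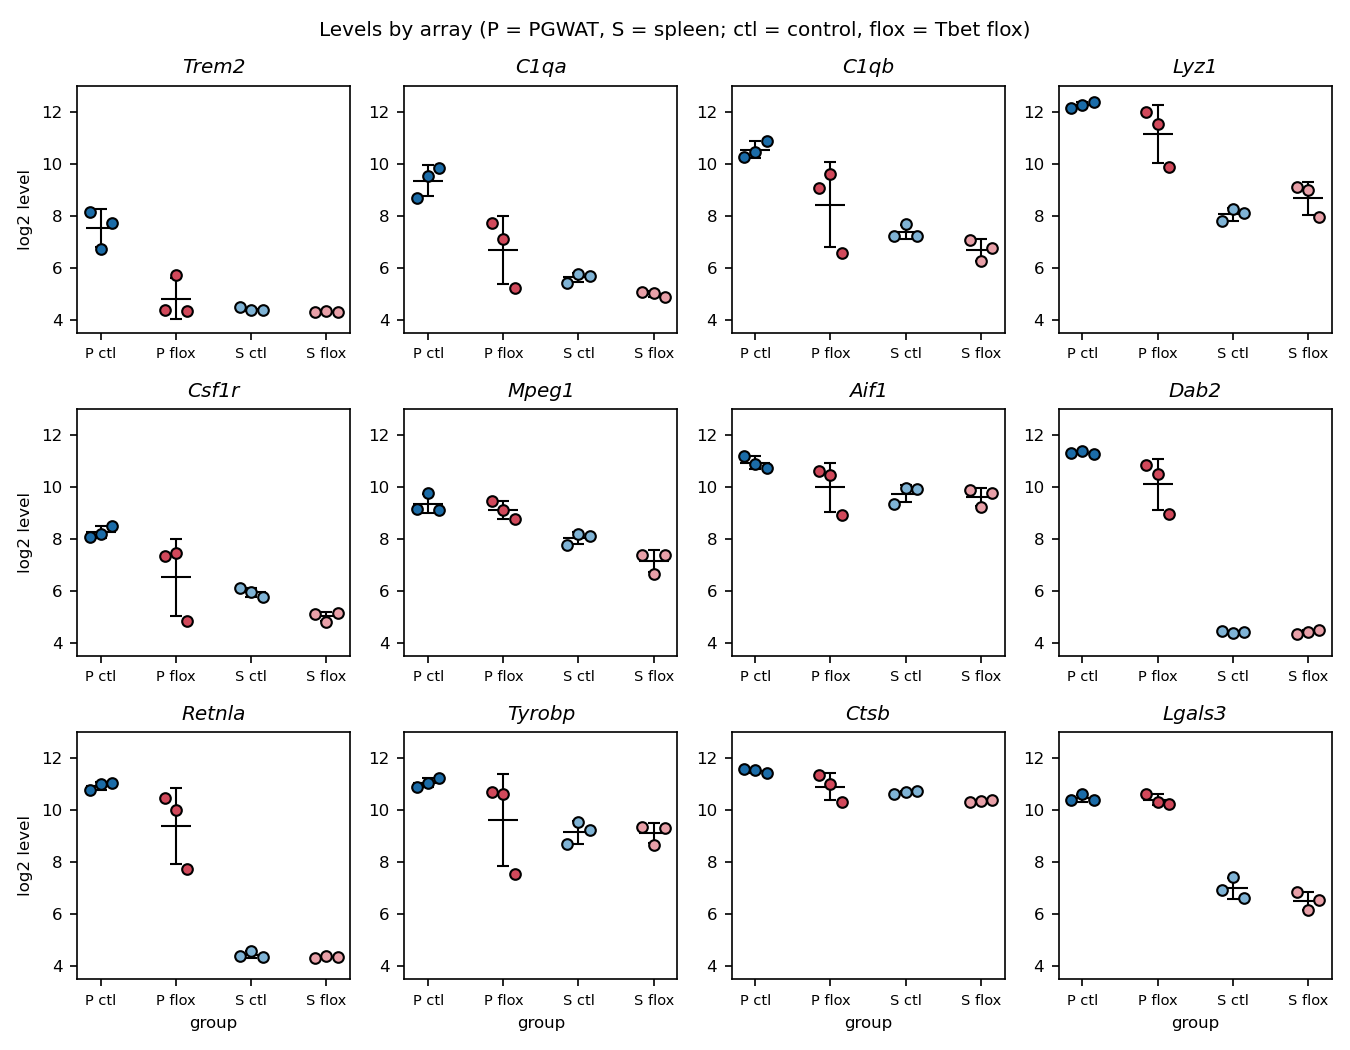
Normalized log2 level of 12 of the genes on each array (points), with the group mean and SD (lines). Trem2 is at 6.74 or higher on the PGWAT control arrays and at 5.72 or lower on all others, and Lgals3 is at 10.25 or higher on all PGWAT arrays.

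In spleen Treg samples, Csf1r and Mpeg1 fell in Tbet flox and the other 30 genes did not pass, with none higher. Over all features 1.08% were called lower and 0.673% higher. The 7 genes detected on 2 or fewer spleen arrays were left out of the counts that follow. Of the other 25 genes 19 were below 0, against 51% of the 13298 features detected on 3 or more spleen arrays, and the median was -0.29 against -0.01. The arrays did not overlap for 9 of the 25, all lower in Tbet flox, against 12.5% of those features. Csf1r measured 6.12, 5.97 and 5.77 in spleen control and 5.09, 4.81 and 5.15 in spleen Tbet flox, a change of -0.94 ± 0.20 (limma adjusted p = 0.0373). Its other kept probe was at -0.14 (limma adjusted p = 0.718 over all kept probes). Mpeg1 measured 7.78, 8.20 and 8.12 in spleen control and 7.40, 6.66 and 7.39 in spleen Tbet flox, a change of -0.88 ± 0.19 (limma adjusted p = 0.039). Both genes had every Tbet flox array below every control array. Neither call held without weights for the tissues (limma adjusted p = 1 for both) or with the spleen arrays fitted alone (0.0654 and 0.1). Over 22 alternatives each, the limma adjusted p of Csf1r ran from 0.0146 to 1 and that of Mpeg1 from 0.0292 to 1. Leaving out a spleen array ended both calls, with limma adjusted p of 0.0581 to 0.172, except that Csf1r kept its call without spleen control 3 (0.0389). Of the others, Fcer1g was at -0.90 ± 0.24, Adgre1 at -0.88 ± 0.28, C1qc at -0.84 ± 0.29, C1qb at -0.68 ± 0.25 and C1qa at -0.64 ± 0.19, with limma adjusted p of 0.0705 to 0.172. Lyz1 and Lyz2 measured 0.61 and 0.58 higher in Tbet flox (limma adjusted p of 0.248 and 0.27).

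Whether the genotype difference was itself different in PGWAT and spleen was tested for each gene, and none of the 32 passed by limma, where 0.0719% of all features did. An unadjusted p under 0.05 was reached by 10 of the 32, against 10.5% of all features. The value, PGWAT difference minus spleen difference, was below 0 for 27 of the 32, against 47.1% of all features. These counts include Trem2, Cd14 and Fcgr2b, which were kept through PGWAT control, and also Retnla and Dab2. None of these genes was detected on any spleen array, so their values restate PGWAT differences. All of them were below 0, and all but Fcgr2b had an unadjusted p under 0.05. Counts without them were not made. Trem2 was at -2.64 ± 0.50 (limma adjusted p = 0.0694, and 0.0281 to 0.27 over 21 alternatives), but it was below detection on all spleen arrays, so this value restates its PGWAT difference and does not show whether the genotype effect differed between tissues. Apoe was at -2.27, C1qa at -2.03, Lgmn at -1.99 and Lyz1 at -1.75, with limma adjusted p of 0.258 to 0.523.

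In control mice most of the genes were higher in PGWAT than in spleen. Of the 32 genes 23 rose and 9 did not pass, with none lower, where 6.52% of all features were called higher and 8.58% lower. The median difference was 2.89 against -0.12 over all features. All PGWAT control arrays were above all spleen control arrays for 28 of the 32, against 13.8% of all features. Among the 25 genes detected on 3 or more spleen arrays 18 rose, and among the other 7, which passed the filter mainly through PGWAT, 5 did. In Tbet flox mice 12 of the 32 rose and 20 did not pass, with none lower, where 4.52% of all features were called higher and 4.96% lower. There the median was 1.5 against -0.04, and the arrays did not overlap for 12 of the 32, against 15.1% of all features. In Tbet flox mice 9 of the 25 genes detected on 3 or more spleen arrays rose, and 3 of the other 7. The medians and non-overlap counts of both genotypes include those 7 genes, and values without them were not made. Of the genes that rose, 11 rose in both genotypes. Without PGWAT Tbet flox 1 or without PGWAT Tbet flox 2 the count in Tbet flox was 5, and without PGWAT Tbet flox 3 it was 16.

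**Figure D5:**
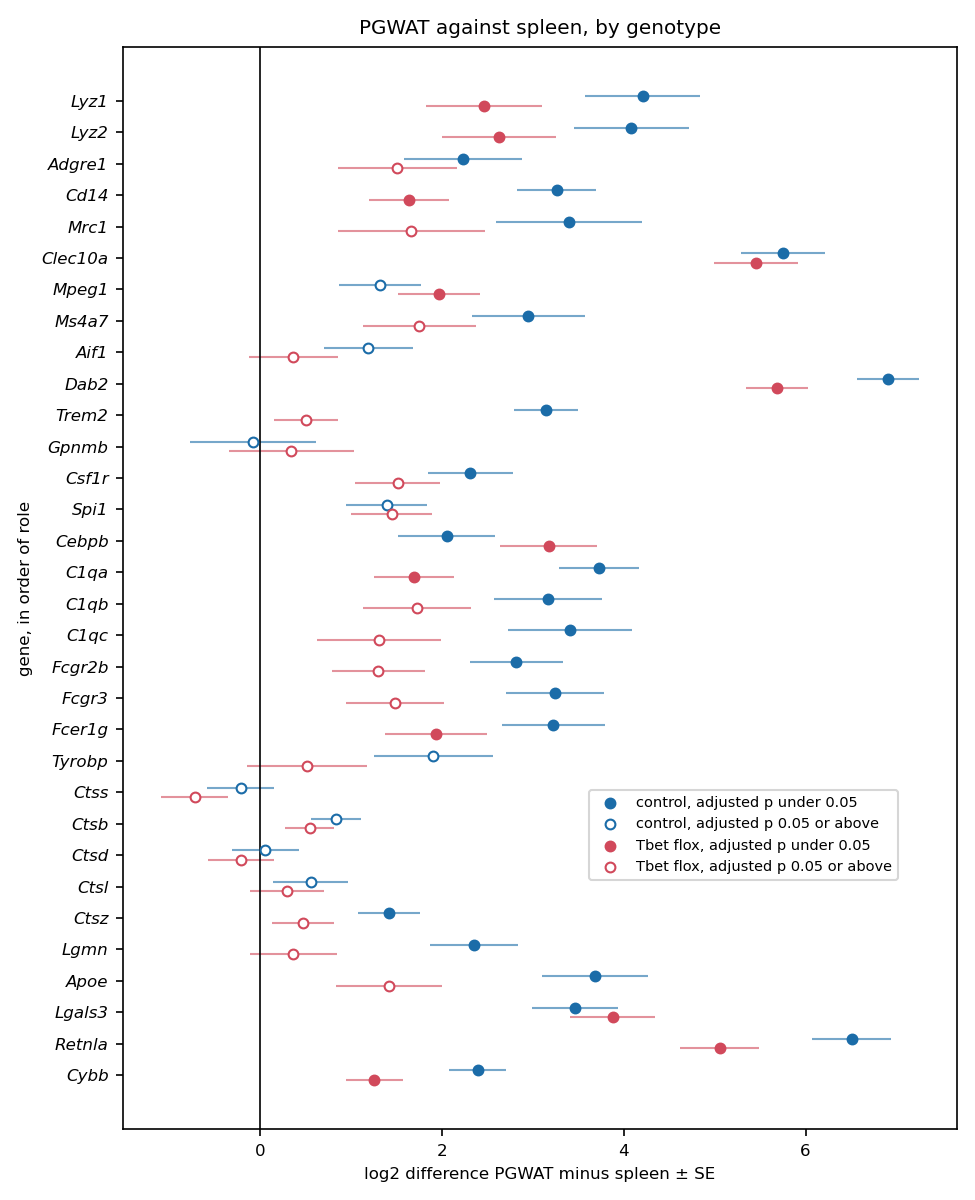
Difference PGWAT minus spleen (log2 units ± SE of the limma fit) for each of the 32 tested genes in control and in Tbet flox mice, with filled points past a limma adjusted p of 0.05. Of the control points 23 are filled and of the Tbet flox points 12, all of them above 0. By the probes used, Ctss, Ctsb, Ctsd and Ctsl lie within 0.84 log2 units of 0.

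The widest tissue differences were those of Dab2, Retnla and Clec10a, for which values by array are given after their values were seen. Dab2 measured 11.33, 11.40 and 11.26 on the PGWAT control arrays, 10.84, 10.49 and 8.98 on the PGWAT Tbet flox arrays and between 4.34 and 4.48 on the spleen arrays. Retnla measured 10.78, 11.01 and 11.04 on the PGWAT control arrays, 10.47, 10.02 and 7.74 on the PGWAT Tbet flox arrays and between 4.32 and 4.59 on the spleen arrays. Neither was above background on any spleen array, so each fold is a bound, taken over each spleen array's lowest signal above background, or over the gene's own if higher. By the probe used, Dab2 was at least 92.6-fold higher in PGWAT in control mice (limma adjusted p = 9.12e-08) and at least 40.8-fold higher in Tbet flox mice (7.69e-07). These bounds hold for that probe only. The other kept probes of Dab2 differed by 5.045 and 2.933 log2 units in control and by 2.528 and 1.109 in Tbet flox mice. Retnla was at least 70.9-fold higher in control (limma adjusted p = 1.33e-06) and at least 25.2-fold higher in Tbet flox mice (1.44e-05). By the same rule, in control mice, Cd14 was at least 7.1-fold, Trem2 at least 6.73-fold and Fcgr2b at least 5.56-fold higher. For Fcgr2b this too is the probe used, and its other kept probes differed by 2.051 and 0.87 log2 units. Clec10a, a galactose-binding lectin of macrophages and dendritic cells, measured 11.97, 12.15 and 12.17 in PGWAT control against 6.75, 6.37 and 5.92 in spleen control. It rose by 5.75 ± 0.46 in control and 5.46 ± 0.46 in Tbet flox mice (limma adjusted p = 5.62e-06 and 1.44e-05), and all PGWAT arrays were above all spleen arrays.

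Both lysozymes rose in both genotypes. Lyz1 measured 7.78, 8.28 and 8.13 in spleen control and 9.11, 8.98 and 7.94 in spleen Tbet flox. It was higher in PGWAT by 4.21 ± 0.63 in control (limma adjusted p = 0.000767) and 2.47 ± 0.63 in Tbet flox mice (0.0275). Lgals3 measured 6.94, 7.42 and 6.63 in spleen control and 6.87, 6.17 and 6.53 in spleen Tbet flox, all below every PGWAT array. It rose by 3.47 ± 0.47 in control and 3.88 ± 0.47 in Tbet flox mice (limma adjusted p = 0.000366 and 0.00025). Cebpb rose by 2.05 ± 0.53 and 3.18 ± 0.53 (limma adjusted p = 0.0196 and 0.00273), and Cybb by 2.39 and 1.26. With PGWAT Tbet flox 1 left out, the limma adjusted p in Tbet flox mice was 0.18 for Lyz1 and 0.138 for Cybb, and without PGWAT Tbet flox 2 it was 0.141 and 0.122. Without PGWAT Tbet flox 3 Cybb was at 0.0656. In control mice Cebpb was at 0.147 without PGWAT control 2.

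The C1q chains and Fc receptor genes rose in control mice. C1qa measured 5.43, 5.77 and 5.69 in spleen control and 5.07, 5.03 and 4.87 in spleen Tbet flox, and was higher in PGWAT by 3.73 ± 0.44 in control (limma adjusted p = 0.000132) and 1.69 ± 0.44 in Tbet flox (0.0295). The Tbet flox call of C1qa was made under 12 of 23 alternatives, with limma adjusted p of 0.00541 to 0.224, the highest without PGWAT Tbet flox 1. C1qb measured 7.22, 7.67 and 7.22 in spleen control and 7.07, 6.24 and 6.76 in spleen Tbet flox. It rose by 3.17 ± 0.59 in control (limma adjusted p = 0.00327) and was 1.73 higher in Tbet flox, where PGWAT Tbet flox 3 lay among the spleen arrays (0.0864). C1qc rose by 3.41 in control and Fcgr3 by 3.25, and in Tbet flox mice neither passed (limma adjusted p of 0.263 and 0.103). Fcer1g rose by 3.23 in control and 1.94 in Tbet flox mice (limma adjusted p = 0.00214 and 0.047), and the call in Tbet flox was made under 9 of 23 alternatives (0.0209 to 0.285). Tyrobp measured 8.69, 9.56 and 9.24 in spleen control and 9.34, 8.67 and 9.32 in spleen Tbet flox. It was 1.91 ± 0.66 higher in control PGWAT, without overlap, and did not pass (limma adjusted p = 0.0682).

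Of the other genes, Csf1r (2.31), Apoe (3.69), Mrc1 (3.40), Ms4a7 (2.95), Adgre1 (2.23) and Trem2 rose in control mice, and none of them passed in Tbet flox mice, where the limma adjusted p lay between 0.0594 and 0.422. Without PGWAT control 3 the control p was 0.141 for Adgre1 and 0.0513 for Mrc1. Adgre1 also lost its call without PGWAT control 1 or 2, PGWAT Tbet flox 2, or spleen control 1 or 3 (0.0545 to 0.0944), and Mrc1 without PGWAT control 1 (0.0507). Cd14 rose in both genotypes, but in Tbet flox mice the call was made under 12 of 23 alternatives, with limma adjusted p of 0.0048 to 0.232, the highest without PGWAT Tbet flox 1. Mpeg1 was 1.32 higher in control, not passing, and rose by 1.97 in Tbet flox mice (limma adjusted p of 0.0653 and 0.0163), where leaving out PGWAT Tbet flox 1, 2 or 3 ended the call (0.107, 0.0793 and 0.0528). Lyz2 rose in both genotypes and in Tbet flox mice lost its call without PGWAT Tbet flox 1 (0.143) or 2 (0.122). Because no gene passed the test of the difference between genotypes, the tissue differences were not shown to differ between control and Tbet flox mice.

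Of the 6 lysosomal proteases Ctsz (1.42 ± 0.34, limma adjusted p = 0.0142) and Lgmn (2.36 ± 0.48, 0.00552) rose in control mice and none passed in Tbet flox mice. Ctsz lost its call without PGWAT control 2 (0.0881) or 3 (0.067). Ctsb measured 10.63, 10.69 and 10.74 in spleen control and 10.32, 10.36 and 10.40 in spleen Tbet flox. The PGWAT control arrays were all above it by a difference of 0.84 ± 0.27 that did not pass (limma adjusted p = 0.0554). By the other kept probe of Ctsb the difference in control mice was 1.70, which passed (limma adjusted p = 0.019 over all kept probes). Ctss, for cathepsin S, whose values by array are given after they were seen, measured 10, 10.18 and 10.08 in PGWAT control and 10.22, 10.31 and 10.35 in spleen control, the only one of the 32 genes with every PGWAT control array below every spleen control array (23% of all features), and it did not pass (-0.21 ± 0.37, limma adjusted p = 0.75). Ctsd was at 0.06 and Ctsl at 0.56 in control mice. Ctsl was detected on 1 PGWAT control, 2 PGWAT Tbet flox, no spleen control and 1 spleen Tbet flox array. In Tbet flox mice Ctsb was at 0.55 by the probe used and -0.13 by its other probe.

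Other macrophage and lysosomal genes, listed with earlier results known, were read beside these. Of 52 other macrophage and monocyte genes none passed for genotype in PGWAT, with 18 at an unadjusted p under 0.05, and the median was -1.14 with 47 below 0. Those with the smallest p were the costimulatory gene Cd86 (-2.76), the scavenger receptor gene Stab1 (-1.65), the ligand gene Gas6 (-1.47) and the folate receptor gene Folr2 (-1.73), with limma adjusted p of 0.157 to 0.263. In spleen 1 of the 52 was called lower, the receptor gene Axl (-0.82, limma adjusted p = 0.0318, and 1 without weights for the tissues), against 1.08% of all features. Axl was called under 11 of 22 alternatives. Between tissues 27 rose and none fell in control mice, against 6.52% and 8.58% of all features, and 20 rose and 1 fell in Tbet flox mice, against 4.52% and 4.96%. Among the brightest, the scavenger receptor gene Cd163 was called in control (2.66, limma adjusted p = 0.0436, under 14 of 23 alternatives) and not in Tbet flox (2.09, 0.129), and the integrin gene Itgb2 was at -0.25 and -0.44. The gene that fell in Tbet flox mice was Marco (-1.36, limma adjusted p = 0.0247), a scavenger receptor of spleen macrophages. Axl, Marco and the spleen genes named next were chosen after their values were seen.

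The shares of all features given for spleen and between tissues also apply to the lists that follow, and a list's count near them is not a result about that list. Of 46 other lysosomal genes none passed for genotype in PGWAT, with 9 at an unadjusted p under 0.05, where 9.94% of all features were, and a median of -0.42. The galactosidase gene Glb1 was at 2.55, the sialidase gene Neu1 at 1.89, the chloride transporter gene Clcn7 at 1.43 and the granulin gene Grn at -1.99 (limma adjusted p of 0.174 to 0.335). In spleen 1 was called lower, the sphingomyelinase gene Smpd1 (-0.66, limma adjusted p = 0.0379, under 11 of 22 alternatives). Between tissues 10 rose and 3 fell in control mice and 4 rose in Tbet flox mice. Psap, for the saposin precursor, was called in control (0.99, limma adjusted p = 0.0293, under 17 of 23 alternatives), and the other bright ones, Npc2, Laptm5 and Atp6ap1, were between -0.17 and 0.26. Of 11 other cathepsins and cysteine protease inhibitors none passed in PGWAT, with 1 at an unadjusted p under 0.05 (Ctsa, -2.26, limma adjusted p = 0.248). In spleen 2 were called lower, Ctsw (-1.24, limma adjusted p = 0.0117, under 17 of 22 alternatives), a cathepsin of cytotoxic lymphocytes, and Ctsc (-0.71, 0.0312, under 11 of 22). Between tissues 6 rose and 1 fell in control, and 4 rose and 1 fell in Tbet flox mice. Cst3, for the inhibitor cystatin C, rose by 1.91 in control (limma adjusted p = 0.00353) and Ctsc by 1.85 in control and 1.62 in Tbet flox mice (0.00286 and 0.0102). Of 15 Fc receptor signalling and oxidase partners none passed in PGWAT, with 2 at an unadjusted p under 0.05 and a median of -0.10. In spleen 1 was called lower, the kinase gene Fgr (-0.76, limma adjusted p = 0.024, under 14 of 22 alternatives), and between tissues 4 rose and 1 fell in control and 1 rose in Tbet flox mice. Without weights for the tissues Smpd1, Ctsw, Ctsc and Fgr all had a limma adjusted p of 1 in spleen, and with the spleen arrays fitted alone it was 0.0654 to 0.0761 for them and for Axl.

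Markers of other cells were also present in the PGWAT samples, and their part in the differences above was not tested. Of 8 dendritic cell genes none passed for genotype in PGWAT, with 4 at an unadjusted p under 0.05 and a median of -1.26. Their summed level was 12254 to 12813 on the control and 7019 to 8815 on the Tbet flox arrays. The list they came from held the class II genes H2-Ab1 and Cd74, which macrophages and B cells also express. The brightest probes dominate the sum, so it gives no measure of dendritic cells alone. Of 4 mast cell genes Cpa3 was called higher in Tbet flox PGWAT (2.81 ± 0.49, limma adjusted p = 0.0404), but under no more than 4 of 22 alternatives, at up to 0.409 with the PGWAT arrays fitted alone. Of 8 stromal and endothelial genes none passed, with 1 at an unadjusted p under 0.05, and Sparc, a matrix gene, was 6.55 higher in PGWAT than in spleen in control mice (limma adjusted p = 5.56e-07). Among 4 adipocyte, 2 B cell, 6 CD8 and NK cell, 1 neutrophil and 2 red cell genes none passed for genotype in PGWAT, with 1 of them, a CD8 or NK cell gene, at an unadjusted p under 0.05. The adipocyte genes had a summed level of 123 to 463 in PGWAT control and 90 to 103 in spleen.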

How the data were processed

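RNA of Treg samples was measured on 12 single-colour Illumina arrays, 3 in each of 4 groups, and groups were taken from titles and genotype labels. Per the file headers, the deposited table gives each probe a non-normalized signal intensity on every array. Per the file headers it also gives a detection p-value for each such signal. Per the submitters' processing notes GenomeStudio was used, with the version not given in the sources used here. A second deposited table holds the authors' processed intensity values, whose scaling is not stated, and was used only as an alternative.

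Signals were background corrected and quantile normalized by the neqc function (limma 3.58.1, R 4.3.3, offset 16, log2 scale, background from the detection p-values). Only probes whose detection p was under 0.05 on at least 3 arrays stayed in (22833 of 45281), and the brightest stood for its gene, which left 10882 named genes and 4426 unnamed probes. Of all probes 34885 had 1 symbol, 18 several and 10378 none. Of the tested genes described here, 10 had several kept probes.

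All 12 arrays were fitted together with limma, with 1 mean per group, 1 weight per tissue (0.313 for PGWAT, 3.2 for spleen, because PGWAT arrays differed more among themselves) and 8 residual degrees of freedom. P-values were two-sided, moderated and Benjamini-Hochberg adjusted over all 15308 features, and the code was tested on simulated data. With the weights a simulation averaged 14 false calls for genotype in PGWAT, beside 0.9 and 22.9 true calls of smaller and larger changes. For genotype in spleen it averaged 32.7 false calls, beside 79.3 and 99 true calls. In both, more of the calls were false than the threshold allows. Without the weights the simulation averaged 225.4 false calls for genotype in PGWAT, beside 29.3 and 69.2 true calls. A fold is a bound, for the probe used, where no probe of a gene was above background on any array of the dimmer group.

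The genes, roles and lists were chosen with earlier results of these data known. Values by array are given for the brightest gene of each role, for genes past the threshold for genotype and for the 2 with the smallest p for genotype in PGWAT, and other choices made after seeing values are marked as such. From the other lists the text names up to 4 with the smallest p for genotype in PGWAT, or up to 4 of the brightest between tissues. Those 13 lists are T cell and Treg identity, other macrophage and monocyte genes, other lysosomal genes, other cathepsins and inhibitors, Fc receptor signalling and oxidase partners, and dendritic, neutrophil, mast, B, CD8 and NK, adipocyte, stromal and red cell genes. Alternatives were other weights, the groups compared alone, median scaling, no background correction, the authors' table, a stricter filter or none, the mean of probes, the replicate number as a block, and leaving out each array. A block within each genotype was added after seeing the data.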

Additional observations from a re-analysis of the deposited data

How the results depend on the processing

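With 3 arrays a group and a wide spread among PGWAT arrays, the counts for genotype hung on the weights and on single arrays, while the direction of the tissue differences past the threshold was kept under all alternatives run. For genotype in PGWAT the number of the 32 genes called was 3 without weights (580 features in all) and 0 with a weight for each array, with the 2 groups alone (0 features), with median scaling (12 features), with no background correction, with the authors' table and with the replicate block (2 features). In the simulation most calls for genotype in PGWAT made without weights were false. Leaving out 1 array gave 0 to 1 of the genes and 6 to 57 features. For genotype in spleen it was 0 without weights (0 features), with the 2 groups alone (10), with median scaling (106), without a filter (50) and with the replicate block (5), and 1 with the mean of probes. A weight for each array gave 649 features, and 492 features were called with no background correction and 492 in the authors' processed values. Leaving out 1 array gave 0 to 4 genes and 6 to 346 features.

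Between tissues in control mice the number of genes called was 20 to 26, and all features numbered 1481 with the block within each genotype and 1513 to 2240 with 1 array left out. In Tbet flox mice a weight for each array gave 19 genes and 2213 features and the block within each genotype 709 features, and leaving out 1 array gave 5 to 16 genes and 562 to 1638 features. For the genotype effect between tissues leaving out 1 array gave 0 to 1 genes and 2 to 61 features. All features there numbered 18 without weights, with no background correction, with the authors' table and with the mean of probes, 7 with median scaling, 43 without a filter and 1 with the replicate block.

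Median scaling moved the median difference of all features from 0.04 to -0.08 for genotype in PGWAT, from -0.12 to -0.22 between tissues in control and from -0.04 to -0.28 in Tbet flox mice. It split the calls in Tbet flox mice into 473 higher and 1347 lower, against 692 and 759, in control mice into 861 and 1467, against 998 and 1313, and for genotype in PGWAT into 5 and 7, against 18 and 14. The genes described here kept a median of -1.38 for genotype in PGWAT and of 2.91 and 1.36 between tissues.

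Some values near 0 changed sign. The difference between tissues in control mice of Gpnmb was 0.062 with no background correction and with the authors' table, and that of Ctsd in Tbet flox mice 0.10 with a weight for each array. With 1 array left out, genotype in PGWAT ran from -0.18 to 0.016 for Lgals3, -1.02 to 0.025 for Ctss, -0.90 to 0.02 for Ctsd, -0.67 to 0.30 for Ctsl and -0.079 to 1.57 for Gpnmb. Between tissues in control it ran from -0.11 to 0.31 for Ctsd and -1.01 to 0.40 for Gpnmb, and in Tbet flox from -0.017 to 1.55 for Tyrobp, -0.72 to 0.20 for Ctsd, -0.021 to 0.57 for Ctsl and -0.37 to 1.14 for Gpnmb. The replicate numbers did not pair the arrays, since same-numbered arrays correlated at -0.20 to 0.08 in their deviations from group means and 2 of 12 arrays correlated best with their own number. Under the replicate block Trem2 had a limma adjusted p of 0.226 for genotype in PGWAT. The cause of these changes was not tested.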
